A study of Mus musculus with 16 samples.

Results

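The genes described here encode the proteins of the cytosolic ribosome, in interscapular brown fat of the mouse, a depot that burns fuel to make heat. They were chosen by symbol: every row of the count table whose symbol starts with Rpl or Rps and a digit, or is Rpsa, Rplp0, Rplp1 or Rplp2. The 10 rows of Rps6k kinases and their relatives and the 239 rows with the symbol of a pseudogene (-ps) were left out; members that the annotation calls pseudogenes but whose symbol does not mark them as such, Rps4l among them, were kept. The rule found 92 of the 38924 rows. These were 43 large subunit proteins, 31 small subunit proteins, the 3 proteins of the P stalk, 8 paralogs of ribosomal proteins, 6 retrogenes or copies, and Rps19bp1, which encodes a protein that binds RPS19 and enters by its prefix alone. Large subunit, small subunit and P stalk genes together are called the 77 core genes below.

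All mice were C57BL/6J and 13 weeks old when sampled. Wild-type littermates (WT) were set against knockout mice (KO) that lacked Akt2 in brown fat through UCP1-CreER, a tamoxifen-inducible Cre recombinase driven by the promoter of Ucp1, so cells of the depot that do not use this promoter keep the gene. Each genotype was housed from 9 weeks of age for 4 weeks at 30 °C, a thermoneutral temperature, or at 22 °C, and each of the 4 groups had 4 bulk RNA-seq libraries. Nothing in the labels ties each sample to an animal of its own, and a p-value therefore reflects how far the numbered samples of a group differ, which may be partly technical. In bulk tissue, fewer cells of a type and less RNA per cell cannot be told apart.

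Most ribosomal proteins are needed in equal numbers to fill the large and the small subunit, while the stalk proteins P1 and P2 are present in more than 1 copy, and their mRNAs are known for a tract of pyrimidines at the very 5′ end, the 5′ terminal oligopyrimidine (5′TOP) motif. Through this motif their translation follows the kinase mTORC1, which lies downstream of AKT and of amino acid sensing and which also drives S6 kinases to phosphorylate RPS6. The P stalk recruits elongation factors to the ribosome, and paralogs such as Rps27l, Rpl39l or Rpl3l can take the place of the protein they resemble. RNA-seq measures the amount of these mRNAs and not their translation.

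The 30 bases around the RefSeq transcription start (15 before it and 15 from it on, GRCm38.p6) are printed for 8 genes, because the class is known for the 5′TOP motif. Of these, 4 are the genes that changed in both genotypes. Only Rpl15 of those has a long tract there, as 21 of 79 starts of members do (26.6%). Rpl27a, Rpl35 and Rps6 also have one, and Rpl22l1, a paralog with one, is not printed. The printed windows thus do not show how common a tract is. Capitals mark a C followed by at least 7 C or T, on the strand of the gene, that begins within 5 bases of the start. Shorter tracts are neither marked nor counted. The windows lie at chr14:18270972-18271001 (minus strand, Rpl15), chr7:109519180-109519209 (plus, Rpl27a), chr2:39005117-39005146 (minus, Rpl35), chr4:86857353-86857382 (minus, Rps6), chr9:66946071-66946100 (plus, the first of 2 starts of Rps27l), chr12:69184053-69184082 (minus, Rpl36al), chr17:46782642-46782671 (minus, Rpl7l1) and chr16:10170213-10170242 (plus, Rpl39l).
Rpl15: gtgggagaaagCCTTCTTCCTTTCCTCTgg
Rpl27a: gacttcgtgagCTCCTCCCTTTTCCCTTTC
Rpl35: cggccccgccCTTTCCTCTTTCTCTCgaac
Rps6: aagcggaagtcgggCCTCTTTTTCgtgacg
Rps27l: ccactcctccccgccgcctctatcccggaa
Rpl36al: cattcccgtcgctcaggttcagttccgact
Rpl7l1: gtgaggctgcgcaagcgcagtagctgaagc
Rpl39l: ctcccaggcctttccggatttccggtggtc
RefSeq gave a start for 67 of the 92 genes. Such a tract stood at 20 of 67 starts of core genes (29.9%) and at 1 of 9 starts of paralogs (11.1%, Rpl22l1), against 4.37% of 32851 starts of all genes and 2.70% of 74 starts of mitochondrial ribosomal protein genes. Among the starts of genes called changed in any comparison below, 2 of 16 had it (12.5%), those of Rpl15 and Rpl27a. These shares describe letters around annotated starts. A start annotated a few bases off hides a tract from this search.

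Library totals ranged from 12751528 to 23866743 counts, and levels are given as CPM, the count relative to the TMM-adjusted library size. Akt2 was lower in every KO library, at 69.4 ± 10.7 CPM against 204 ± 12.9 CPM in WT at 30 °C and at 82.2 ± 6.03 CPM against 232 ± 19.8 CPM at 22 °C (mean ± SD, n = 4). The 6 brown adipocyte markers held from 1.23% to 2.69% of counts per library. WT replicate 2 at 22 °C stood apart, with 12.8% of counts on mitochondrially encoded genes against 18.9% to 19.5% in the other WT libraries at 22 °C, and with the highest level of many ribosomal protein genes in its group. Skeletal muscle markers exceeded 0.1% of counts in WT replicate 2 at 30 °C (0.216%), KO replicate 2 at 30 °C (0.328%) and KO replicate 1 at 22 °C (0.521%). At 22 °C, 8 of 10 macrophage markers and all 5 tested proliferation markers were lower in both genotypes; summed macrophage markers held 0.0237% to 0.0377% of counts in WT at 30 °C and 0.0105% to 0.0230% in WT at 22 °C, and 0.0256% to 0.0316% and 0.0133% to 0.0165% in KO. Of 6 endothelial markers 5 were lower in WT at 22 °C and 2 lower and 1 higher in KO, and their summed share was 0.109% to 0.121% at 30 °C and 0.0566% to 0.0758% at 22 °C in WT, and 0.108% to 0.122% and 0.0733% to 0.0968% in KO. Of 6 fibroblast markers 3 were lower in WT and 1 in KO, with summed shares of 0.104% to 0.157% (30 °C) and 0.0705% to 0.0969% (22 °C) in WT, and of 6 brown adipocyte markers 4 were higher in WT and 2 in KO. The part of these cells in the values below was not tested.

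The cytosolic ribosomal protein genes took a small share of the assigned counts. Many of them have near-identical copies, and how reads that match several places were counted is not given. The shares are therefore not levels of expression, and those of cytosolic and mitochondrial genes below are not ranked against each other. In WT at 30 °C the 92 genes held 0.473%, 0.410%, 0.392% and 0.395% of the 4 libraries' counts, and in KO at 30 °C 0.445%, 0.399%, 0.502% and 0.481%. In WT at 22 °C they held 0.335%, 0.489%, 0.346% and 0.307%, and in KO at 22 °C 0.427%, 0.396%, 0.389% and 0.392%. KO at both temperatures and WT at 30 °C overlapped. WT at 22 °C overlapped them through replicate 2 alone, which was near the top of all 16 libraries. The remaining libraries of WT at 22 °C ran from 0.307% to 0.346%, below every library of the other groups (0.389% or more). Without replicate 2 the mean of WT at 22 °C was 0.329% ± 0.0198 (SD, n = 3) in place of 0.369% ± 0.0816 (n = 4). Counts on large subunit and P stalk genes stood to those on small subunit genes as 1.28 ± 0.00641 in WT at 30 °C, 1.29 ± 0.0133 in KO at 30 °C, 1.27 ± 0.0185 in WT at 22 °C and 1.27 ± 0.0120 in KO at 22 °C (SD, n = 4), so the balance of the subunits differed between groups by about the spread within them. The 77 mitochondrial ribosomal protein genes, whose products make the ribosome of the mitochondrion, held 0.389% ± 0.00943, 0.404% ± 0.0209, 0.523% ± 0.103 and 0.469% ± 0.0271 in the same order of groups.

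**Figure D1:**
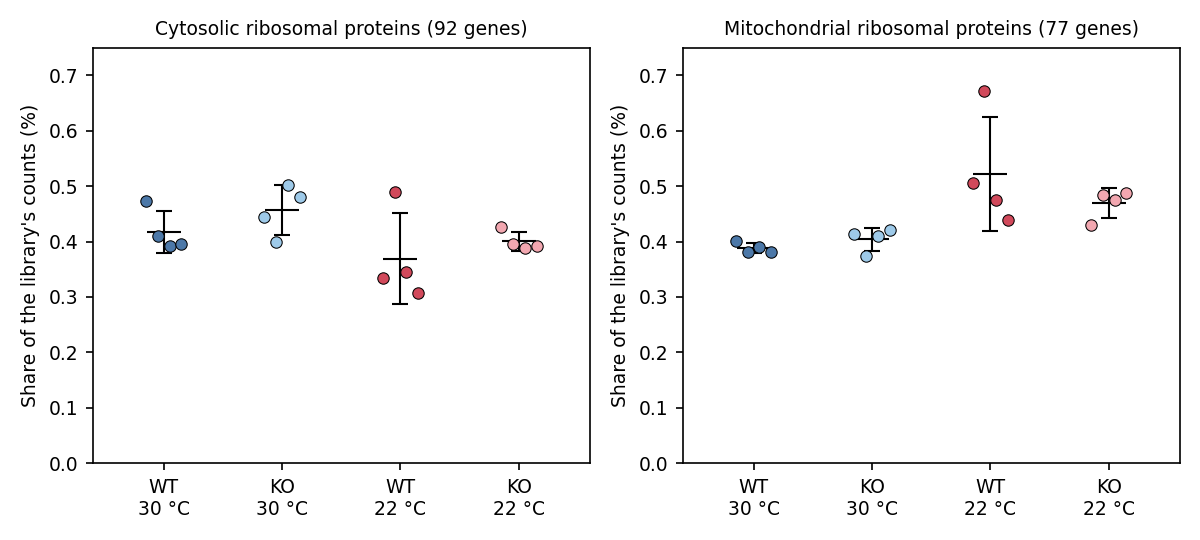
Share of each library's counts (%, from 0) on 92 cytosolic (left) and 77 mitochondrial (right) ribosomal protein genes; points are libraries in order of replicate, lines and bars the mean and SD of 4. The cytosolic shares run from 0.307% to 0.502%, and WT at 22 °C overlaps the other groups through replicate 2 alone. The mitochondrial shares at 22 °C (0.429% to 0.671%) lie above those at 30 °C (0.374% to 0.420%). Shares are of assigned counts and do not rank the families by expression.

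Levels differed widely between genes of the same particle. Among core genes with a mean of at least 10 counts, the mean level per kb of exon over 16 libraries ran from 0.472 CPM per kb for Rps13, a small subunit protein, to 287 CPM per kb for the stalk gene Rplp1. After Rplp1 the highest were Rpl8 (247), Rps15 (196) and Rpl4 (146 CPM per kb), and after Rps13 the lowest were Rpsa (0.658), Rpl21 (0.757), Rps23 (0.796) and Rpl19 (0.842 CPM per kb). Length here is that of all annotated exons joined, not of 1 transcript, so these extremes depend partly on annotation. It was 2691 bases for Rps13 and 499 for Rplp1. By CPM alone, Rpl23a (0.788) lay below Rps13 (1.27). Many of these genes have near-identical copies in the genome, and the level moved with how much of a transcript is unique. The 20 core genes with under 25% of their 50-base windows unique among annotated transcripts had a median of 2.71 CPM per kb, the 36 with 25% to 65% had 11.7 and the 20 with 65% or more had 40.8. Across the 76 core genes Spearman's rho was 0.49 and Pearson's r on log2 levels 0.50, over genes that share libraries and are not independent. Rps6, the S6 kinase substrate, had 15.4% unique windows and only 367 counts in all 16 libraries together, and Rps27 had 107. How the counting treated reads that match several places is not given in the sources used here. Levels are therefore not ranked further between genes, and changes of genes with few unique windows are uncertain. The 239 pseudogene rows left out by symbol together held a mean of 0.00149% (WT, 30 °C), 0.00165% (KO, 30 °C), 0.00161% (WT, 22 °C) and 0.00146% (KO, 22 °C) of counts.

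**Figure D2:**
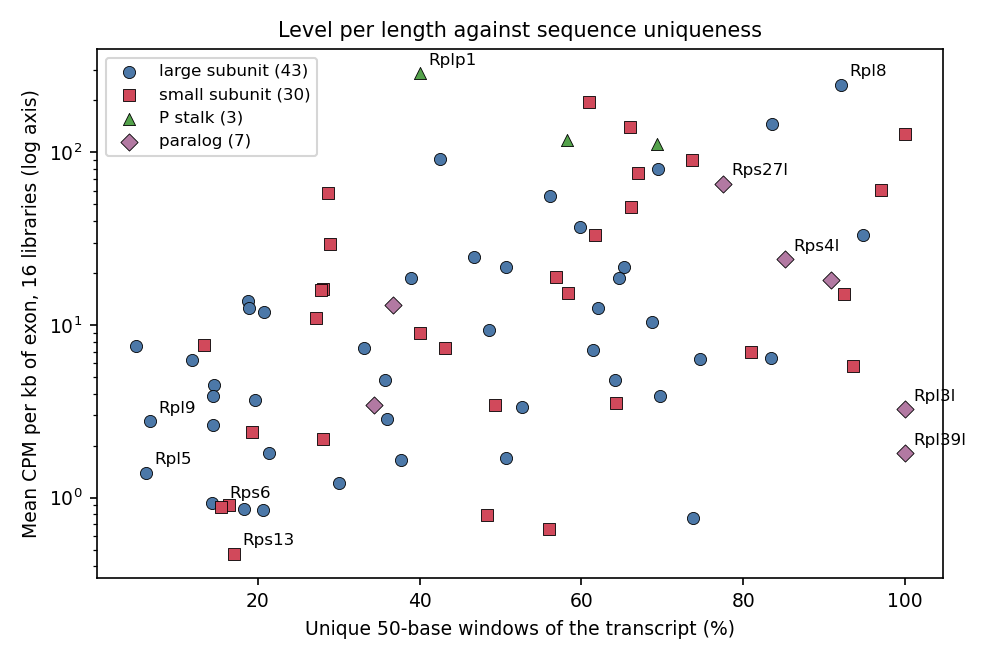
Mean level per kb of exon over 16 libraries (CPM per kb, log axis) against the percentage of a transcript's 50-base windows found in no other gene, for genes with a mean of at least 10 counts; symbols give the class. Core genes under 25% unique have a median of 2.71 CPM per kb and those at 65% or more a median of 40.8. Length is that of all annotated exons of a gene joined.

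In WT, most ribosomal protein genes had no called change between 30 °C and 22 °C. Of the 85 genes with enough counts to test, 11 rose at 22 °C and 1 fell, by edgeR's quasi-likelihood test with a Benjamini-Hochberg adjusted p under 0.05 over 14103 genes. Of all genes tested, 20.5% were called higher and 17.8% lower, so the called share was below the background in each direction. The median log2 fold change was 0.08 over the 85 genes and -0.03 over all genes, and 62 of the 85 were within 0.3 of 0. WT replicate 2 at 22 °C decided the sign of that median, which was -0.08 without it. With counts scaled by library totals alone, the median of all genes moved to -0.31 and that of the ribosomal protein genes to -0.20, with 3 called higher and 17 lower. The count of 11 was 7 without WT replicate 2 at 30 °C, and without the 3 muscle-bearing libraries Rpl7l1, Rpl31, Rpl39l, Rps19 and Rps29, all described below, missed the threshold (adjusted p from 0.0520 to 0.0731). Directions below are relative to the TMM scaling.

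Calls were more frequent among the paralogs than among the core genes, a difference that was not tested. Of the 8, 7 were tested and 5 rose in WT at 22 °C, against 5 of 76 tested core genes and 20.5% of all genes tested. Of these paralogs, Rpl7l1 and Rpl39l lost their calls without WT replicate 2 at either temperature, as given below. Rps27l (chromosome 9, 66946086-66949516, plus strand, GRCm38), a paralog of Rps27 known as a p53 target, was at 42.4, 43.0, 40.8 and 40.0 CPM in the WT libraries at 30 °C and at 67.9, 89.2, 62.8 and 53.9 CPM at 22 °C. All libraries at 22 °C were above all at 30 °C, with a log2 fold change of 0.72 (SE 0.115, adjusted p = 0.000183) and, without WT replicate 2 at 22 °C, of 0.56 (adjusted p = 8.33e-05). Rps27l held about 99% of the counts of the pair with Rps27 in every group, with means from 99.1% to 99.4%. Rps27 itself had too few counts to test. Only 1.35% of its windows were unique, against 77.6% for Rps27l, and shares of a pair depend on which reads can be assigned. Pair shares here and below are shares of assigned counts and not of expression.

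Rps4l (chromosome 6, 148354656-148355598, plus strand) is a single-exon copy of Rps4x that GENCODE M21 lists as a transcribed processed pseudogene, and 85.1% of its windows were unique. It stood at 18.6, 19.3, 18.6 and 16.8 CPM in WT at 30 °C and at 32.8, 50.01, 26.9 and 28.3 CPM in WT at 22 °C. The groups did not overlap, with a log2 fold change of 0.91 (SE 0.168, adjusted p = 0.000596), or 0.68 (adjusted p = 0.000562) without WT replicate 2 at 22 °C. Its parent Rps4x had 29.3, 25.7, 23.95 and 27.6 CPM at 30 °C and 19.4, 27.2, 21.8 and 18.1 CPM at 22 °C, a log2 fold change of -0.31 that did not pass (adjusted p = 0.0759). The share of Rps4l in the counts of the pair was 40.8% ± 2.89 in WT at 30 °C and 61.0% ± 4.11 in WT at 22 °C (SD, n = 4). Of the windows of Rps4x, 27.8% were unique.

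Rpl36al, a paralog of the large subunit gene Rpl36a, had 14.8, 13.4, 14.2 and 15.1 CPM in WT at 30 °C and 23.5, 31.8, 17.6 and 17.4 CPM at 22 °C. Every library at 22 °C was above those at 30 °C (log2 fold change 0.65, SE 0.159, adjusted p = 0.00461), and its share of the pair with Rpl36a went from 77.6% to 84.3%. An annotated transcript, Gm49383, overlaps the exons of Rpl36al on the same strand over 332 bases. Of the windows of Rpl36al 36.7% were unique, against 14.5% for Rpl36a. Rpl7l1, a paralog of Rpl7 that acts in ribosome assembly, had 57.8, 42.9, 51.4 and 55.1 CPM at 30 °C and 70.1, 79.3, 51.4 and 72.0 CPM at 22 °C. Its library of replicate 3 at 22 °C lay among those at 30 °C (log2 fold change 0.40, SE 0.120, adjusted p = 0.0166), and the call was lost without WT replicate 2 at 22 °C (adjusted p = 0.0553) or WT replicate 2 at 30 °C (adjusted p = 0.0663). Rpl39l, a paralog of Rpl39 best known from testis, was near 1 CPM, at 1.55, 0.516, 0.749 and 0.847 CPM at 30 °C and 1.67, 6.07, 2.44 and 1.74 CPM at 22 °C. Its log2 fold change of 1.68 (SE 0.515, adjusted p = 0.0174) rested on WT replicate 2 at 22 °C, without which it was 1.08 (adjusted p = 0.0878), and was also lost without WT replicate 2 at 30 °C (adjusted p = 0.0548).

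The remaining paralogs had no called change in WT. Rpl22l1, which resembles Rpl22, had 6.72, 4.36, 6.28 and 6.83 CPM at 30 °C and 7.78, 10.2, 5.88 and 5.58 CPM at 22 °C, and the groups overlapped (adjusted p = 0.287). Rpl10l, a testis paralog of Rpl10, had 9 counts in all, 8 of them in WT replicate 2 at 22 °C, and was not tested.

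**Figure D3:**
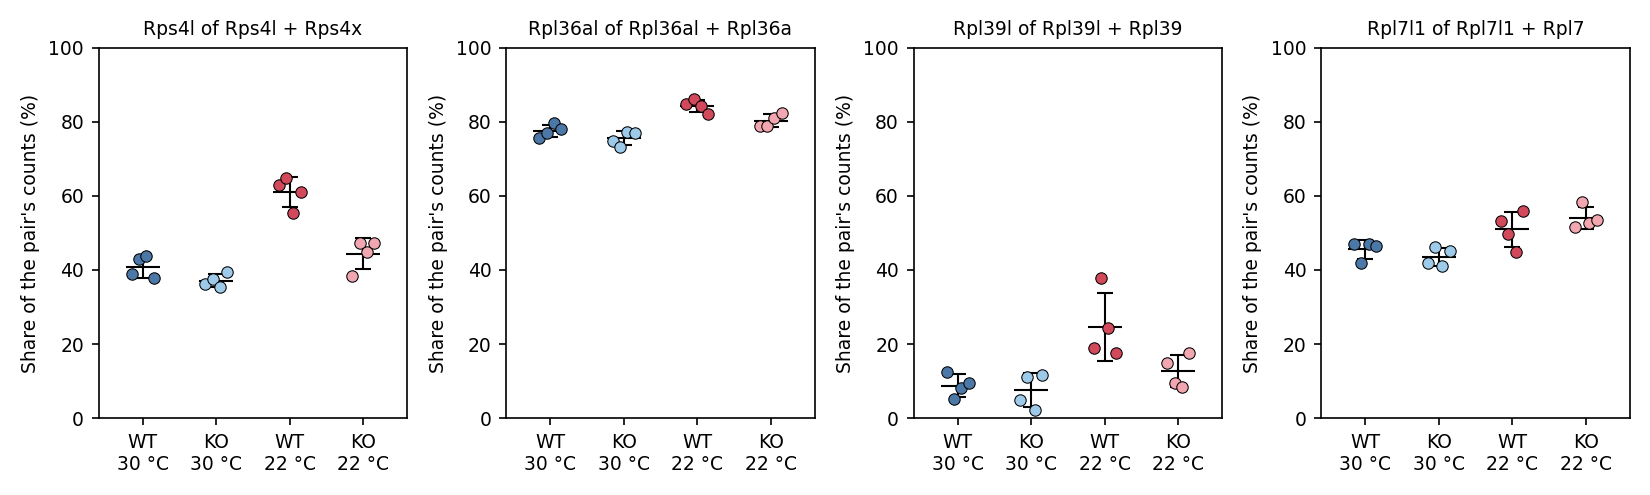
Share of a paralog in the summed counts of the paralog and the gene it resembles (%, 0 to 100), for Rps4l, Rpl36al, Rpl39l and Rpl7l1; points are libraries, lines and bars the mean and SD of 4. Rps4l takes 55.3% to 64.8% of its pair in WT at 22 °C and 35.4% to 47.3% in the other groups. Shares are of assigned counts and can depend on how unique each transcript is.

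Among small subunit core genes, 3 of 30 tested rose in WT at 22 °C and none fell. Rps19, the gene most often mutated in Diamond-Blackfan anaemia, had 88.1, 70.5, 72.6 and 76.6 CPM at 30 °C and 97.4, 139.6, 96.5 and 81.8 CPM at 22 °C. Its lowest library at 22 °C lay below the highest at 30 °C (log2 fold change 0.43, SE 0.131, adjusted p = 0.0166), and the call was lost without WT replicate 2 (adjusted p = 0.0561) or replicate 3 (adjusted p = 0.0502) at 30 °C. Rps29, a zinc-binding protein of the small subunit, was near 2 CPM (log2 fold change 0.57, adjusted p = 0.0472) and lost its call in most alternatives, among them the omission of WT replicates 1, 2 or 4 at 30 °C or 1, 2 or 3 at 22 °C (adjusted p from 0.0839 to 0.135). Rps19bp1, the binding protein, had 15.9, 13.8, 16.8 and 14.4 CPM at 30 °C and 19.99, 25.9, 18.0 and 18.0 CPM at 22 °C, without overlap (log2 fold change 0.42, SE 0.117, adjusted p = 0.00987).

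Among large subunit genes, 2 of 43 rose and 1 fell. Rpl15, a large subunit protein with the long tract shown above, had 6.95, 8.77, 8.06 and 8.28 CPM at 30 °C and 11.9, 13.0, 11.1 and 9.41 CPM at 22 °C, without overlap (log2 fold change 0.50, SE 0.127, adjusted p = 0.00583). Rpl31 had 1.84, 1.09, 1.497 and 1.45 CPM at 30 °C and 2.07, 3.04, 2.56 and 2.27 CPM at 22 °C, again with the groups apart (log2 fold change 0.75, SE 0.222, adjusted p = 0.0146). Its exons, 1662 bases in all, overlap those of Tbc1d8 on the other strand over 420 bases. No strand setting is given, so reads from the shared bases cannot be told apart. Rpl15 overlaps Nkiras1 in the same way over 105 bases. Rpl5, which with Rpl11 binds the p53 regulator MDM2, fell from 6.30, 5.96, 5.47 and 6.11 CPM to 4.19, 4.25, 4.00 and 4.71 CPM (log2 fold change -0.47, SE 0.169, adjusted p = 0.0365). The groups did not overlap, but the call was lost with 6 of 8 single libraries left out (adjusted p from 0.0592 to 0.0762, WT replicates 1, 2 or 4 at 30 °C and 1, 2 or 3 at 22 °C), only 6.16% of its windows were unique, and its exons share 953 bases with Fam69a on the other strand.

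The 3 stalk genes had no called change. Rplp0, the stalk's base, had 204, 188, 183 and 178 CPM at 30 °C and 166, 224, 176 and 158 CPM at 22 °C in WT. Rplp1 had 167, 131, 129.8 and 123 CPM and then 135, 197, 123 and 116 CPM, and Rplp2 had 234, 193, 187 and 186 CPM and then 224, 328, 212 and 197 CPM. In each of them replicate 2 was the highest WT library at 22 °C and the groups overlapped, with log2 fold changes of -0.06 (adjusted p = 0.695), 0.05 (adjusted p = 0.816) and 0.26 (adjusted p = 0.148). Rps6 had 2.20, 0.458, 1.15 and 0.968 CPM at 30 °C and 1.87, 1.67, 1.25 and 1.05 CPM at 22 °C, a difference of 0.29 on the log2 scale (SE 0.376, adjusted p = 0.570) that its few counts could not resolve.

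**Figure D4:**
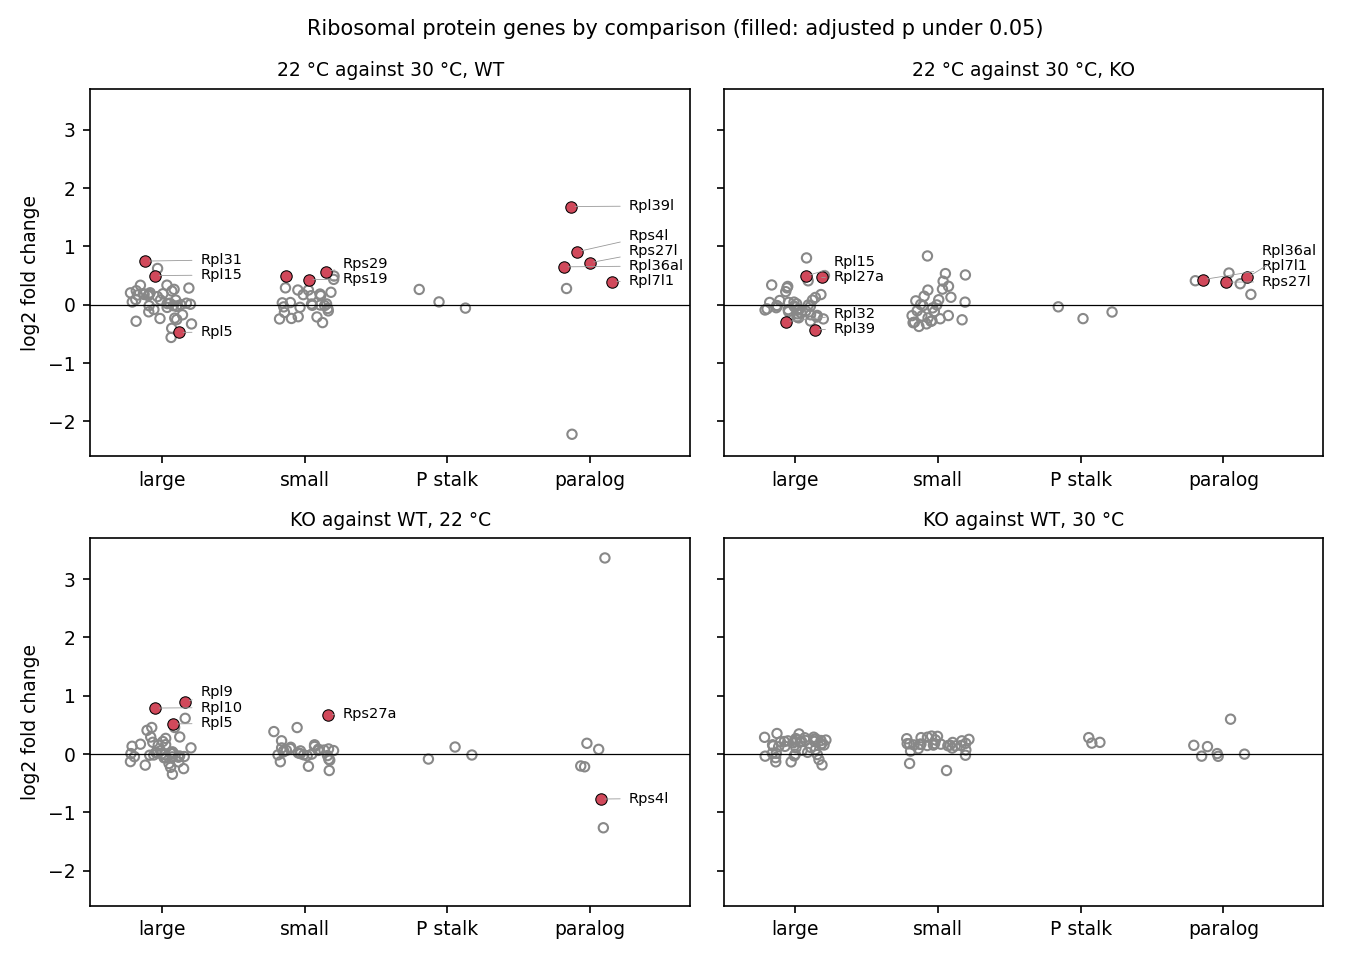
Log2 fold change of each tested gene by class in 4 comparisons; filled points have an adjusted p under 0.05 by edgeR, and those described in the text carry their symbol. In WT at 22 °C 5 of 7 paralogs are called higher, where 20.5% of all genes are. Rpl7l1 and Rpl39l lose that call without WT replicate 2 at 22 °C. No gene is called between KO and WT at 30 °C, and the open paralog point at 3.36 is Rpl3l. The x position within a class is random.

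In KO, 5 of 85 genes rose at 22 °C and 2 fell, against 13.8% and 13.0% of all genes tested. The median log2 fold change was -0.02, beside 0.02 over all genes. Rpl15, Rpl36al, Rpl7l1 and Rps27l rose here as in WT. They are 4 of the 11 that rose in WT (36.4%) and 4 of the 5 that rose in KO (80.0%). The same overlap over all genes tested is not given here, so whether these shares exceed the background was not tested. The comparisons in WT and KO share no library, but all libraries entered the same model, so their tests are not fully independent. Rps27l had 46.3, 41.9, 49.2 and 44.1 CPM in KO at 30 °C and 62.5, 60.4, 56.3 and 58.3 CPM at 22 °C, without overlap (log2 fold change 0.39, SE 0.115, adjusted p = 0.0212). Rpl7l1 had 54.7, 59.9, 55.7 and 59.3 CPM and then 73.5, 88.0, 72.1 and 76.2 CPM (log2 fold change 0.43, SE 0.120, adjusted p = 0.0156), and Rpl15 had 7.77, 8.55, 7.93 and 7.63 CPM and then 11.4, 13.0, 8.89 and 11.6 CPM (0.49, SE 0.127, adjusted p = 0.0105). For both, every library at 22 °C lay above those at 30 °C.

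Rpl36al in KO had 13.7, 11.8, 15.1 and 15.4 CPM at 30 °C and 19.9, 17.9, 18.0 and 21.6 CPM at 22 °C, also apart (log2 fold change 0.47, SE 0.160, adjusted p = 0.0405). Rpl27a, a large subunit protein, had 10.7, 10.9, 11.7 and 13.6 CPM and then 16.3, 17.6, 15.03 and 16.1 CPM (log2 fold change 0.47, SE 0.152, adjusted p = 0.0327). Rpl39 and Rpl32, both of the large subunit, fell. Rpl39 went from 10.7, 9.92, 12.8 and 11.2 CPM to 9.33, 7.53, 8.62 and 7.72 CPM (log2 fold change -0.42, SE 0.131, adjusted p = 0.0257), and Rpl32 from 85.4, 76.98, 96.6 and 89.7 CPM to 76.4, 69.7, 68.7 and 70.3 CPM (-0.29, SE 0.0951, adjusted p = 0.0342). Each of the 2 had its highest library at 22 °C, replicate 1, below its lowest at 30 °C. The calls in KO were close to the threshold: leaving out 1 library gave from 0 to 4 genes higher and from 0 to 4 lower, with none left in either direction without KO replicate 2 at 22 °C. Of the KO libraries at 30 °C, omitting replicate 1 or 3 gave 3 higher and omitting replicate 2 gave 2; of those at 22 °C, omitting replicate 1 or 4 also gave 2. Rpl36al missed the threshold whichever of the 8 libraries was left out (adjusted p from 0.0562 to 0.138), and without the muscle-bearing libraries Rps27l did too (0.33, adjusted p = 0.136).

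Most of the heavily counted genes had no called change with temperature. The 20 core genes with most counts hold 78.6% of the core counts. In WT 2 of them were called, Rps19 among them, and in KO 1, Rpl32, where log2 fold changes ran from -0.29 to 0.25. Rpl8, a large subunit protein with 92.1% unique windows, had 365, 312, 294 and 319 CPM in WT at 30 °C, 362, 324, 427 and 379 CPM in KO at 30 °C, 323, 431, 293 and 262 CPM in WT at 22 °C and 336, 321, 320.4 and 301 CPM in KO at 22 °C. All 4 groups of Rpl8 overlapped.

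Between KO and WT at 22 °C, 4 genes were higher and 1 lower in KO, against 7.52% and 10.1% of all genes tested, with a median of 0.03 beside 0.02 over all genes. This comparison shares libraries with both temperature comparisons. The 4 higher became 2 without WT replicate 1 or 3 or KO replicate 2 and 1 without KO replicate 1, all at 22 °C. Endothelial markers differed here as well, 4 of 6 being higher in KO (summed, 0.0733% to 0.0968% of counts against 0.0566% to 0.0758% in WT), and their part was not tested. Rps4l had 17.5, 20.8, 20.04 and 22.3 CPM in KO at 22 °C, all below the lowest WT library at 26.9 CPM (log2 fold change -0.77, SE 0.167, adjusted p = 0.00644). Without WT replicate 2 the difference was -0.54 (adjusted p = 0.00872), and in a fit of only the 8 libraries at 22 °C it missed the threshold at -0.77 (adjusted p = 0.0540). Rps4l had 17.7, 14.2, 18.2 and 21.1 CPM in KO at 30 °C, so its KO libraries at the 2 temperatures overlapped (log2 fold change 0.18, adjusted p = 0.465). Its share of the pair with Rps4x was 37.1% ± 1.77 in KO at 30 °C and 44.4% ± 4.16 in KO at 22 °C (SD, n = 4). The test of the difference between the temperature effects in the 2 genotypes gave -0.73 (SE 0.238, adjusted p = 0.1004), so the effect of temperature on Rps4l was not shown by edgeR to differ between them; DESeq2 called this interaction.

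Of the 4 genes higher in KO at 22 °C, Rpl10, Rpl9 and Rpl5 had under 25% unique windows and Rps27a had 28.0%. Rpl10, a large subunit protein that joins late in assembly (14.6% unique), had 5.71, 6.83, 6.63 and 6.86 CPM in WT and 14.8, 11.3, 9.76 and 9.03 CPM in KO. The difference was 0.79 on the log2 scale (SE 0.197, adjusted p = 0.0136) and 0.62 (adjusted p = 0.0415) without KO replicate 1. Rpl9 (6.68% unique) had 5.61, 6.75, 6.50 and 5.93 CPM in WT and 13.9, 11.4, 11.4 and 9.38 CPM in KO (0.89, SE 0.242, adjusted p = 0.0204), and missed the threshold without KO replicate 1 (0.78, adjusted p = 0.0520). For both genes the KO libraries lay above all WT libraries at 22 °C, and the WT libraries at 30 °C overlapped the KO libraries.

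Rps27a, which is made as a fusion with ubiquitin (28.0% unique), had 2.91, 4.71, 3.31 and 2.85 CPM in WT and 6.67, 6.37, 4.74 and 4.16 CPM in KO, with overlap (0.68, SE 0.208, adjusted p = 0.0358). Its exons share 160 bases with Clhc1 on the other strand. Rpl5 (6.16% unique) had 8.78, 5.45, 5.35 and 4.99 CPM in KO, above the WT libraries given before (0.52, SE 0.169, adjusted p = 0.0464). Leaving out single libraries ended both calls: without KO replicate 1 the difference was 0.56 (adjusted p = 0.105) for Rps27a and 0.29 (adjusted p = 0.166) for Rpl5. KO replicate 1 is also the library with the most skeletal muscle marker counts (0.521%), and without the 3 libraries above 0.1% the count of genes higher in KO went from 4 to 1, with Rpl10 left. The part of muscle in these values was not tested.

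**Figure D5:**
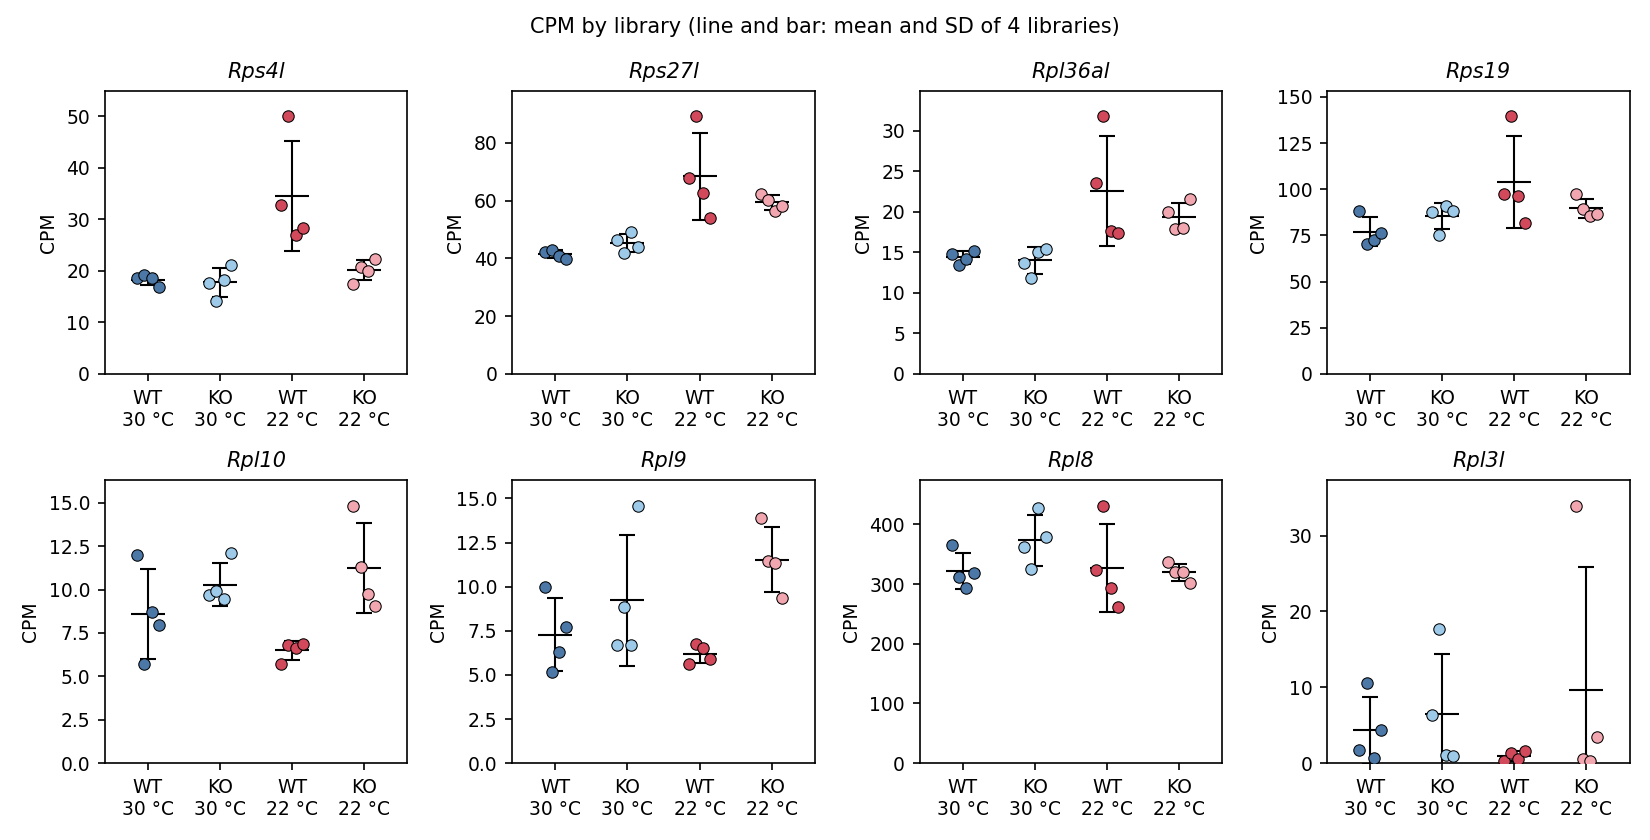
CPM by library for 8 genes; points are libraries in order of replicate, lines and bars the mean and SD of 4 (axes start at 0, so bars below 0 are cut). Rps4l is high in WT at 22 °C alone (26.9 to 50.01 CPM, other groups up to 22.3), Rps27l and Rpl36al are high at 22 °C in both genotypes, Rpl8 overlaps in all groups, and Rpl3l is highest in KO replicate 1 at 22 °C (33.97 CPM).

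Rpl3l, a paralog of Rpl3 made in skeletal and heart muscle, had no called change, although its log2 fold changes of 22 °C against 30 °C in WT (-2.22) and of KO against WT at 22 °C were the largest in size of the 85 tested members. It had 1.78, 10.5, 0.633 and 4.35 CPM in WT at 30 °C, 6.29, 17.8, 1.13 and 0.980 CPM in KO at 30 °C, 0.345, 1.29, 0.500 and 1.63 CPM in WT at 22 °C and 33.97, 0.612, 0.334 and 3.50 CPM in KO at 22 °C. The 3 highest values belong to the 3 libraries with over 0.1% of counts on muscle markers. Muscle markers in the other 13 libraries held from 0.00365% to 0.0988%. The log2 fold change of KO against WT at 22 °C was 3.36 (SE 1.34, adjusted p = 0.0910).

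At 30 °C, edgeR called none of the 85 genes between KO and WT, against 0.0284% of all genes called higher and 0.0142% lower. At an unadjusted p under 0.05 there were 2 (Rpl7 and Rps15a), and DESeq2 and limma-voom called none. The median log2 fold change was 0.16, beside 0.02 over all genes, and 70 of 85 values were above 0. The 20 most counted core genes ran from 0.06 to 0.28, all 20 above 0. These values come from the same 8 libraries and move together with them, so their number adds no replication; leaving out 1 library moved the median between 0.12 and 0.23. For the interaction edgeR called none either, against 0.752% of all genes higher and 2.39% lower. At an unadjusted p under 0.05 there were 5, limma-voom called none and DESeq2 called 1, Rps4l. The median of the interaction was -0.14, and 0.02 without WT replicate 2 at 22 °C.

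A second fit scaled each library to its own total of ribosomal protein counts, to ask which genes changed within the family. In WT at 22 °C, 11 genes changed their share, against 25.9% of all genes called on this scale. Of these 8 gained, among them Rps27l (0.61), Rps4l (0.79), Rpl36al (0.53), Rps19 (0.33), Rpl39l (1.53), Rpl31 (0.67) and Rps19bp1 (0.32, all log2), and Rpl3 (-0.34), Rps3a1 (-0.31) and Rps4x (-0.40) lost. On this scale Rps4x fell and its copy Rps4l rose, but whether the changes are linked was not tested. Only 27.8% of the windows of Rps4x were unique. In KO, 8 genes changed (16.3% of all genes), and among them Rps27l, Rpl36al, Rpl7l1, Rpl15, Rpl27a and Rps29 gained from 0.48 to 0.64. Between KO and WT at 22 °C, 4 did (7.15% of all genes), with Rpl9, Rpl10 and Rps27a higher and Rps4l lower (-0.74). None did between KO and WT at 30 °C (0.0142% of all genes) or for the interaction (0.376%).

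Ribosomal proteins that the symbols do not catch were examined as well. Fau, which encodes a ribosomal protein fused to a ubiquitin-like protein, rose in WT at 22 °C by 0.69 on the log2 scale (adjusted p = 0.0192). It had 3.21, 4.01, 3.63 and 4.11 CPM at 30 °C and 5.86, 9.11, 5.50 and 3.83 CPM at 22 °C, with overlap. Of the 3 genes examined 2 were called higher in WT, and 1 was without WT replicate 2 at 22 °C. Rack1, a scaffold on the small subunit, had 0.01 (adjusted p = 0.960). Neither Fau nor Rack1 was called in KO. Of 14 other genes with 5′TOP mRNAs, 1 rose and 3 fell in WT, against 20.5% and 17.8% of all genes tested. Tpt1 was at 0.41, Pabpc1 (poly(A)-binding protein) at -0.24, Eif4b at -0.25 and Hnrnpa1 at -0.70. In KO, Tpt1 rose by 0.30 and Pabpc1 fell by 0.32, and neither KO comparison with WT had a call.

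Genes of the machinery around the ribosome were counted in the same way. Over all genes tested, 20.5% were called higher and 17.8% lower in WT at 22 °C, and 13.8% and 13.0% in KO. Between KO and WT at 22 °C the shares were 7.52% and 10.1%. In WT the called shares of the assembly and polymerase lists below were near or under these. No list was tested as a set. Of 28 cytosolic initiation factors, 15 rose in WT at 22 °C and none fell, among them Eif3c (0.40), Eif3b (0.44), the cap-binding Eif4e (0.51) and its partner Eif4g1 (0.36), with a list median of 0.32. In KO 7 rose, and 2 did without the muscle-bearing libraries. Of 39 ribosome assembly genes, 7 rose and 2 fell in WT, with Bysl (0.77), Imp4 (0.52), Rcl1 (0.73) and Bop1 (0.52) the clearest, 7 rose in KO, and 8 were higher in KO than in WT at 22 °C, among them Utp15 (0.52) and Nop2 (0.39). Of those 8 calls, the count without the 3 muscle-bearing libraries was 1. Of 24 genes of RNA polymerases I and III and their factors, which make ribosomal and transfer RNA, 5 rose and 1 fell in WT and 6 rose and 2 fell in KO, including Polr1d (0.84 in WT, 0.57 in KO) and Ubtf (0.47 and 0.50). Between KO and WT at 22 °C 4 of them were higher and 4 lower.

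Of 27 genes for S6 kinases and the control of mTORC1, 9 rose and 3 fell in WT at 22 °C, against 20.5% and 17.8% of all genes tested. Mtor, the kinase itself, rose by 1.08, Eif4ebp1, a translation repressor that mTORC1 phosphorylates, by 0.99, Deptor, an mTOR inhibitor, by 1.11 and the activator Rheb by 0.46. In KO 8 rose and 3 fell, against 13.8% and 13.0% of all genes. Between KO and WT at 22 °C, 1 was higher and 5 lower, against 7.52% and 10.1% of all genes. Deptor was at -1.54 (SE 0.170, adjusted p = 2.62e-05), Mtor at -0.80 (adjusted p = 0.000193), Sesn1 at -0.60 and Eif4ebp1 at -0.63. The interaction was called for Deptor (-1.09, adjusted p = 0.0223) and Mtor (-0.71, adjusted p = 0.0228), against 2.39% of all genes called lower. Without the muscle-bearing libraries no gene of this list had a called interaction. No list had a call between KO and WT at 30 °C.

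The mitochondrial ribosomal protein genes gave the widest contrast with the cytosolic ones. Over all genes tested, 20.5% were called higher at 22 °C in WT and 13.8% in KO. Lower in KO than in WT at 22 °C were 10.1%, and 2.39% had a lower called interaction. In WT 70 of 76 tested rose at 22 °C and none fell, with a median log2 fold change of 0.67, where the 76 tested core cytosolic genes had 5 higher, 1 lower and a median of 0.04. Without WT replicate 2 at 22 °C, 69 rose and the median was 0.52. Mrpl50 (1.37), Mrps27 (1.16) and Mrpl38 (0.91) were among the clearest. In KO 41 rose and 1 fell (median 0.29), and 16 rose without the muscle-bearing libraries, with a median of 0.30. At 22 °C 17 were lower in KO than in WT (median -0.28), of which the count was 13 without WT replicate 2 and 7 without the muscle-bearing libraries. A called interaction was found for 4, among them Mrpl50 (-0.92, adjusted p = 0.000749). The count of called interactions was 6 without WT replicate 2 at 22 °C and 1 without the muscle-bearing libraries. The difference between the 2 families was not tested.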

How the data were processed

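Raw read counts per Ensembl gene were deposited as 1 table of 16 libraries, and the values show no normalisation by the authors. The submitters' processing notes name the builds GRCm38 and mm10 and the tools STAR 2.4.2a, FastQC 0.10.1 and edgeR 3.14.0. Not given in the sources used here are the counting program, the strand setting and the treatment of reads with several matches. Symbols matched 37607 of 38924 rows. The members, the gene lists, the naming rule and the tests were chosen with earlier results of these data known.

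All libraries entered 1 quasi-likelihood model (edgeR 4.0.16, R 4.3.3) with a term per group, TMM factors and filterByExpr (minimum count 10). It tested 14103 of 24818 genes with a count, and adjusted p over all of them. Of the 92 members 85 passed this filter; Rps27, Rps3a3, Rps27rt, Rpl10l, Rpl6l, Rps3a2 and Rps12l1 (107, 24, 18, 9, 4, 3 and 2 counts in all) did not. The biological coefficient of variation was 22.5%. A second fit scaled libraries to the members' total. Each standard error is the size of the log2 fold change over the square root of F. Scripts were tested on simulated counts. Uniqueness was counted as 50-base windows of GENCODE M21 transcripts, and start windows come from RefSeq (GRCm38.p6). Named were called members, the 5 highest and 5 lowest per length, paralogs, stalk genes, Rps6, Rps19bp1 and up to 4 called genes a list; Rpl8, Rps4x, Rpl7 and Rps15a, and members called only relative to the family total, were named after their values were seen.

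Alternatives were other scalings and filters, DESeq2 1.42.0, limma-voom (limma 3.58.1), the replicate number as a block, only the groups compared, and libraries left out. Results on some genes are not reported here.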

Additional observations from a re-analysis of the deposited data

Results flagged for a closer look

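In 5 of 92 group-by-measure sets of 4 libraries, 1 library lay far from the other 3 by Dixon's test, where chance gives about 5%. KO replicate 1 at 22 °C held 3 of them: Rpl3l at 33.97 CPM, Rpl5 at 8.78 CPM and Rpl31 at 3.00 CPM, each the highest of its group. This library also held the most skeletal muscle marker counts. The share of counts on annotated ribosomal protein pseudogenes was highest in WT replicate 2 at 22 °C (0.00268%), the library with the highest share of counts on the ribosomal protein genes in its group, and in KO replicate 3 at 30 °C (0.00184%), which also had the highest such share in its group.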

How the results depend on the processing

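No called difference of a single gene changed sign in any alternative run; uncalled genes were not followed. Rps27l and Rps4l in WT and Rpl10 in KO against WT at 22 °C kept their calls in all of them; Rps27l in WT ranged from 0.44 to 0.82. Numbers below are genes higher and lower. In WT, 22 °C against 30 °C (11 and 1), upper-quartile factors gave 6 lower, library totals 3 and 17 with a median of -0.20 (all genes -0.31), no filter 0 lower, omission of the 3 muscle-bearing libraries 6 and 3, and a fit of only the groups compared 2 lower. In KO (5 and 2), upper-quartile factors gave 2 and 9, library totals 2 and 7, no filter 3 and 0, omission of the muscle-bearing libraries 2 and 4, and only the groups compared 10 lower. For KO against WT at 22 °C (4 and 1), library totals gave 7 higher, no filter 2, omission of the muscle-bearing libraries 1, and only the groups compared 2 and 0. For the interaction, library totals gave 1 higher and a median of 0.041, and DESeq2 1 lower. Without mitochondrially encoded genes in the total, the members' share was 0.556% and 0.627% (WT and KO, 30 °C), 0.446% (WT, 22 °C; 0.408% without replicate 2) and 0.522% (KO, 22 °C). The cause was not tested.

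Leaving out 1 library gave 7 to 15 higher, 0 to 3 lower and a median of -0.076 to 0.15 in WT; 0 to 4, 0 to 4 and -0.09 to 0.05 in KO; 1 to 4, 1 to 2 and -0.053 to 0.18 for KO against WT at 22 °C; 0, 0 and 0.12 to 0.23 at 30 °C; and 0, 0 and -0.22 to 0.023 for the interaction. Relative to the members' total, the calls ran from 6 to 13 in WT, 3 to 9 in KO, 1 to 3 for KO against WT at 22 °C and 0 for the others. Same-numbered libraries correlated from -0.54 to 0.53, over 0.1 in 11 of 24 pairs. Differently numbered libraries were not compared in this way, so these values cannot decide whether the number marks a pairing. With the replicate number as a block, 3 rose and 1 fell in KO, 2 were higher in KO at 22 °C, and relative to the members' total 5 and 1 were called.

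Genes with few counts, such as Rps6, limit what these depths can show.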
